A study of Mus musculus with 6 samples.

Results

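Cadherins are calcium-dependent adhesion proteins of the cell surface. The 8 genes described here were chosen by name, with earlier results of these data known, out of 31854 rows of a mouse count table: the type I (classical) cadherins Cdh1, Cdh2, Cdh3 and Cdh4, the type II cadherins Cdh5, Cdh6 and Cdh11, and the atypical Cdh13. Each symbol had 1 row in the table. RNA was measured in 4T1, a mouse mammary carcinoma line. The control group had 3 libraries from cells carrying the empty pLVX vector, a lentiviral expression vector, and is also labelled WT. The other group had 3 libraries from 4T1 cells carrying pLVX with LINC01133, a human long noncoding RNA, and is labelled as overexpressing it. The sources used here do not say which promoter drives it, or whether a group is a clone or a pool. Nor do they say if the 3 libraries of a group were separate cultures; p-values here reflect the spread between libraries, and that spread may be technical.

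A classical cadherin binds the same cadherin on the next cell, and its tail inside the cell holds catenins, which tie it to actin filaments. E-cadherin (Cdh1) is the main cadherin of epithelia, including the mammary ducts, and N-cadherin (Cdh2) is typical of mesenchymal and neural cells. The exchange of E-cadherin for N-cadherin during an epithelial-mesenchymal transition is known as the cadherin switch.

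The controls had a mesenchymal set of cadherins, and with LINC01133 nearly all of it was gone. N-cadherin, T-cadherin (Cdh13) and cadherin-11 fell by 5160-fold, 519-fold and 20.2-fold. E-cadherin and R-cadherin (Cdh4) rose by 25.1-fold and 22.2-fold, but only to 1.39 and 0.625 CPM (counts scaled to a common library size, with TMM factors). P-cadherin, VE-cadherin and cadherin-6 (Cdh3, Cdh5 and Cdh6) had at most 6 counts in any library. Per kilobase of gene length, the E-cadherin level with LINC01133 was 1.30% of the N-cadherin level in the controls.

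The libraries held 25521469 to 27035127 counts in the controls and 26719396 to 33877549 with LINC01133, and 3 counts in 1 library amount to between 0.0827 and 0.128 CPM. The 45S ribosomal RNA row Rn45s took 25.4% to 27.9% of control counts and 21.0% to 23.0% of counts with LINC01133. Of 14116 genes tested by edgeR's quasi-likelihood test, 84.9% were called (adjusted p under 0.05), 44.5% higher and 40.5% lower with LINC01133. Calls of 2-fold or more made up 20.3% (higher) and 13.9% (lower) of the tested genes, and the 3 values of one group lay apart from those of the other in 85.0%. Of the 8 cadherins 5 were tested, all 5 were called with at least a 2-fold difference, 2 higher and 3 lower, and in all 5 the groups did not overlap. Each of the 5 had a mean under 2 CPM in at least 1 group and passed the filter on low counts through the group where it was high, so these counts describe the genes and are not evidence about cadherins as a family. The remaining 3 were below the filter. A call by itself is the common result in this comparison, and the sizes of the changes carry more information. In RNA from whole cultures, fewer cells of a kind and less RNA per cell cannot be told apart. Whether the groups share a parental culture is not stated in the labels, and the comparison below is of the groups, not of LINC01133 alone.

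N-cadherin (Cdh2, uc008edx.3, chromosome 18, 16588877 to 16809246 on mm10) was the most abundant of the 8 in the controls. Its counts were 2570, 2535 and 2400 in the 3 control libraries, or 105.3, 105.6 and 102.4 CPM. With LINC01133 they were 0, 2 and 0. The control libraries lay within a few percent of each other, and in 2 of the 3 LINC01133 libraries no N-cadherin read was counted at all. The ratio of control to LINC01133 was 5160, with an exact 95% interval of 1428 to 42615 that covers counting error only (adjusted p = 2.7e-116). Only 12 of the 14116 tested genes had a lower fitted log2 fold change. Both remaining reads came from LINC01133 replicate 2: without that library the group had no N-cadherin read, and the fitted log2 fold change went from -12.05 to -14.45.

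The genes whose levels over the 6 libraries were nearest to N-cadherin, by Euclidean distance of log2 CPM, were Rhox5, Pcdh17 and Nxf3 (distances 0.661, 0.747 and 1.15). Rhox5 is a homeobox gene of the X chromosome, Pcdh17 encodes a protocadherin, another branch of the cadherin superfamily, and Nxf3 belongs to the family of nuclear RNA export factors. All were near 100 CPM in the controls, at 110.7 ± 7.03, 98.3 ± 3.28 and 115.2 ± 1.77 CPM, and had 2, 5 and 4 counts over the LINC01133 libraries (SD, n = 3).

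T-cadherin (Cdh13, uc009npk.2, chromosome 8, 118140017 to 119324929) is the atypical member. It has no tail inside the cell, is held in the membrane by a lipid anchor, and binds the hormone adiponectin. Its counts were 413, 367 and 352 in the controls and 1 in each LINC01133 library. The means were 15.7 ± 1.03 and 0.0306 ± 0.00321 CPM (SD, n = 3), the latter below the level of 3 counts in a library. The ratio of control to LINC01133 was 519 (exact 95% interval 177 to 2520, adjusted p = 9.9e-69). Its nearest genes by level were Pcdh19, a protocadherin of the X chromosome, Nol4, and the T-box factor gene Tbx18 (distances 0.513, 0.724 and 0.726).

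Cadherin-11 (Cdh11, uc009mzu.2, chromosome 8, 102632095 to 102785493), a type II cadherin of mesenchyme and osteoblasts, fell less. Its levels were 9.18, 7.74 and 7.60 CPM in the controls and 0.543, 0.331 and 0.363 CPM with LINC01133. In each LINC01133 library 12 to 16 reads remained. The log2 fold change was -4.32 (SE 0.193, adjusted p = 1.4e-45), a ratio of 20.2 (exact 95% interval 14.7 to 28.6). This interval lies below those of N-cadherin and T-cadherin, so its fall was smaller than theirs beyond counting error, while the intervals of N-cadherin and T-cadherin overlap. Its nearest genes were Msi1, Foxl1 and Gm13889 (distances 0.644, 0.970 and 1.02).

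**Figure D1:**
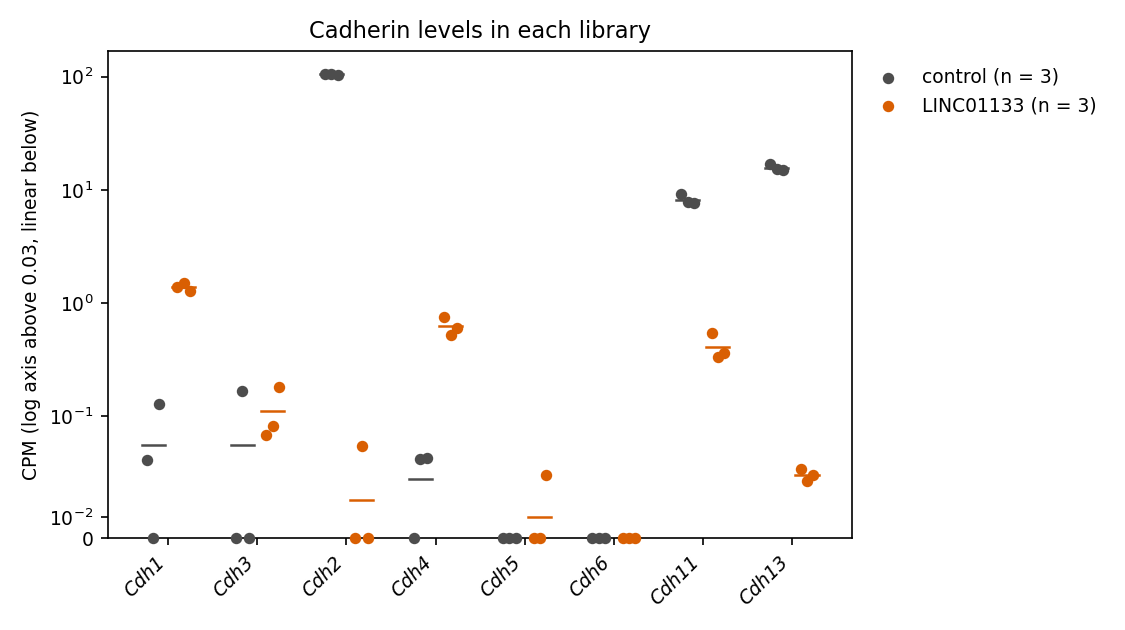
Levels of the 8 cadherins in each library, in CPM on an axis that is logarithmic above 0.03 and linear below; points are libraries and bars are means of 3. Cdh2, Cdh13 and Cdh11 are high in the controls and low with LINC01133, Cdh1 and Cdh4 are higher with LINC01133 but stay near or below 1.39 CPM, and Cdh3, Cdh5 and Cdh6 lie at or near 0 in both groups.

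E-cadherin (Cdh1, uc009ngi.2, chromosome 8, 106603350 to 106670247) had 1, 0 and 3 counts in the controls and 41, 55 and 42 with LINC01133. All 3 LINC01133 libraries were above all controls, with means of 0.0563 ± 0.0654 and 1.39 ± 0.124 CPM (SD, n = 3). The log2 fold change was 4.54 (SE 0.493, adjusted p = 1.7e-15), a ratio of 25.1 with an exact 95% interval of 9.58 to 93.4. The size of the change rests on 4 control reads, and without control replicate 3, which held 3 of them, the log2 fold change was 5.81. P-cadherin (Cdh3, uc009ngg.2, chromosome 8, 106510852 to 106556911), the classical cadherin of basal and myoepithelial mammary cells, lies 46439 bases from Cdh1. It had 0, 4 and 0 counts in the controls and 2, 3 and 6 with LINC01133, and the groups overlapped. The ratio was 2.00 with an exact 95% interval of 0.593 to 8.61, so a change was not detectable at this depth, and without a count filter its adjusted p was 0.43.

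R-cadherin (Cdh4, uc008ohv.3, chromosome 2, 179442423 to 179899377), a classical cadherin known from the retina and brain, had 0, 1 and 1 counts in the controls and 22, 19 and 20 with LINC01133. The means were 0.0281 ± 0.0243 and 0.625 ± 0.113 CPM (SD, n = 3). The ratio was 22.2 (exact 95% interval 5.88 to 187, adjusted p = 9.9e-09). Cdh4 did not pass a filter of at least 1 CPM in at least 3 libraries, so its call rests on low counts.

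VE-cadherin (Cdh5, uc009mzx.2, chromosome 8, 104101613 to 104144504), the cadherin of endothelial junctions, had no read in the controls and 1 read in LINC01133 replicate 3. Floors of 3 counts over a group are 0.0418 CPM in the controls and 0.0304 CPM with LINC01133. Of 14 endothelial markers, VE-cadherin among them, 6 were tested (Pecam1, Tek, Flt1, Esam, Egfl7 and Mmrn2). All 6 were called higher, beside 44.5% of all tested genes. The groups of Esam overlapped (adjusted p = 0.021), and the ratio of Mmrn2 was only 1.56. The summed level of the 14 was 2.66 to 3.24 CPM in the controls and 28.0 to 29.3 CPM with LINC01133. Egfl7 was the highest, at 9.65 ± 0.151 CPM with LINC01133 (SD, n = 3). The defining marker Erg had no read in any library, and Cldn5, Kdr, Emcn, Sox17, Tie1 and Vwf stayed under the count filter. Vwf had 12 counts in the controls and 71 with LINC01133, 50 of them in replicate 2.

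Cadherin-6 (Cdh6, uc007vif.2, chromosome 15, 13028699 to 13176407), a type II cadherin of the developing kidney, had no read in any of the 6 libraries, which allows up to 0.0418 CPM in the controls and 0.0304 CPM with LINC01133. It is the 1 member of the 8 with a promoter in the RefSeq table used here (GRCm38.p6). That window, chr15:13173626-13173925 on the minus strand, covers 1 annotated start, with 250 bases before it and 50 after. The window lies inside the span of Cdh6 given above, which on this strand begins at 13176407, so its start is not the outermost of the gene. The window of Cdh26 (chr2:178430265-178430564, plus strand), the non-member cadherin with the greatest fall, is set beside it, because the factors described later (Snail, Slug, Zeb and Twist) bind E-boxes. Capitals mark the E-box CANNTG, which reads the same on both strands.
Cdh6: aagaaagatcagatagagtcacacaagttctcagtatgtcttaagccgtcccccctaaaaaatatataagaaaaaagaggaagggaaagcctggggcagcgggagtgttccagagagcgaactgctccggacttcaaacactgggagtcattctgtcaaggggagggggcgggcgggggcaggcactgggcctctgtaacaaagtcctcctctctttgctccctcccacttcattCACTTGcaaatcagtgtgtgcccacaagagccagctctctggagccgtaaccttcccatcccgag
Cdh26: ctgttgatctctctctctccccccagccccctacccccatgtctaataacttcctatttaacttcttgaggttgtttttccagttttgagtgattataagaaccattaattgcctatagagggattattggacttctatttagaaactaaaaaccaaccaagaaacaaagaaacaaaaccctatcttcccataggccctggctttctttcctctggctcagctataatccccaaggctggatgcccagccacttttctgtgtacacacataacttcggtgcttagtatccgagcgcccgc
The Cdh6 window holds 1 E-box, 15 bases before the start, and the Cdh26 window holds none. Of 32851 promoter windows of 300 bases, 72.3% hold at least 1. The form CAGGTG, or CACCTG on the other strand, is in neither window and is in 20.2% of all windows. A match or its lack describes these letters only.

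Set against each other per kilobase, the 8 cadherins gave a sum of 24.0 ± 0.490 CPM per kb in the controls and 0.460 ± 0.0165 CPM per kb with LINC01133 (SD, n = 3), 52.2-fold lower. In the controls N-cadherin made up 89.2% to 90.2% of that sum, T-cadherin 5.66% to 6.21% and cadherin-11 3.90% to 4.57%. With LINC01133 E-cadherin made up 57.5% to 66.7%, R-cadherin 17.01% to 23.3% and cadherin-11 8.78% to 13.8%. The share of cadherin-11 was thus larger with LINC01133 although its level was lower. In the controls the order of levels per kb was Cdh2 (21.6 ± 0.362), Cdh13 (1.41 ± 0.0926) and Cdh11 (0.993 ± 0.106), whose library values did not overlap; Cdh3, Cdh1 and Cdh4 followed at 0.0138 or less, with overlapping values. With LINC01133 the order was Cdh1 (0.280 ± 0.0249), Cdh4 (0.0929 ± 0.0168) and Cdh11 (0.0501 ± 0.0139), and the values of Cdh11 and Cdh3 (0.0274 ± 0.0153) overlapped.

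**Figure D2:**
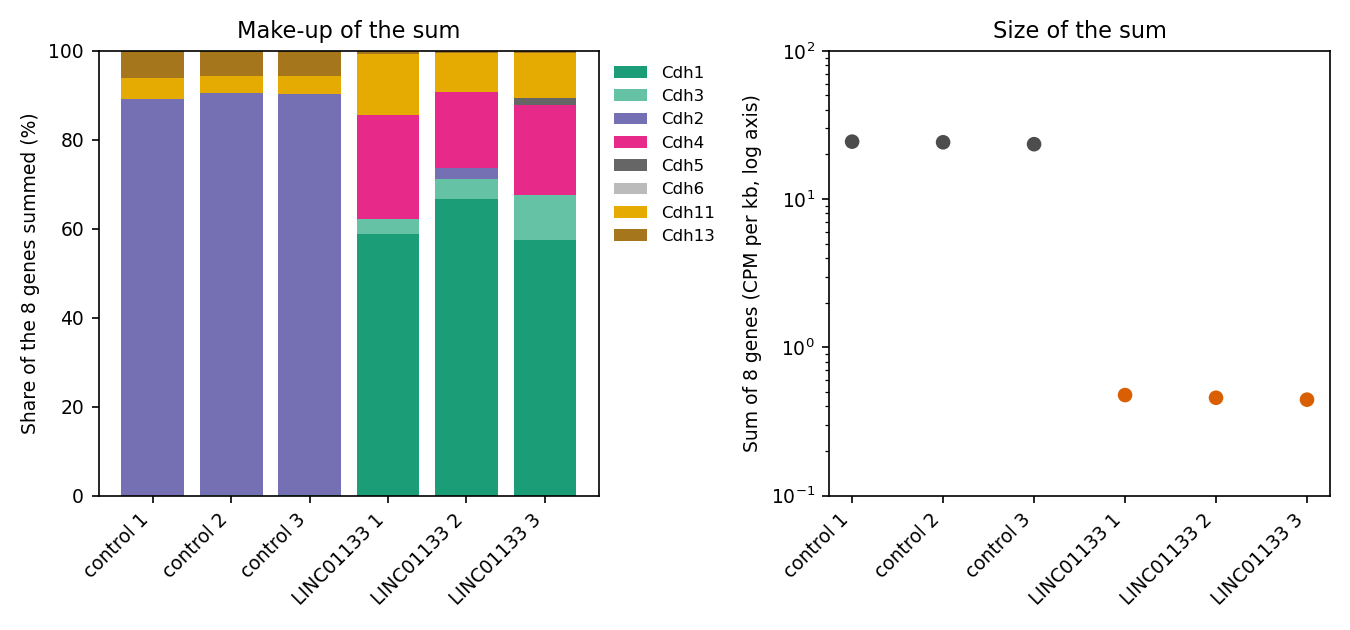
Left, share of each cadherin in the length-scaled sum of the 8, per library, in percent; right, that sum in CPM per kb on a log axis. Cdh2 fills at least 89.2% of the control bars, Cdh1 is the largest part of the LINC01133 bars, and the sum is 52.2-fold lower with LINC01133.

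The table holds 15 further genes with a Cdh symbol. Their summed level went from 19.2 ± 1.08 to 7.09 ± 0.518 CPM per kb (SD, n = 3). Of 14 of them listed as type I, type II and related cadherins, 4 were tested, 2 being higher and 2 lower. Cdh24, a type II cadherin, was the most abundant of all 23 Cdh genes with LINC01133 and took 72.8% of their length-scaled sum, against 23.3% in the controls. Its level nevertheless fell, from 27.5 ± 1.43 to 15.0 ± 1.32 CPM, a log2 fold change of -0.87 (SE 0.0656; adjusted p = 2e-25). Cdh26 had 657, 615 and 545 counts in the controls and 1, 3 and 3 with LINC01133 (log2 fold change -8.39, SE 0.186, adjusted p = 5.7e-80). Cdh17, the cadherin of liver and intestine, rose from 2.70 ± 0.337 to 4.60 ± 0.621 CPM (0.77, SE 0.150). Cdh15, the muscle cadherin, went from 1 to 63 counts, a ratio of 45.8 (exact 95% interval 7.93 to 1838). E-cadherin was 3rd of the 23 with LINC01133 and took 3.71% of the sum. In the controls N-cadherin took 49.9% of the sum of the 23, Cdh26 19.6%, T-cadherin 3.26% and cadherin-11 2.30%.

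**Figure D3:**
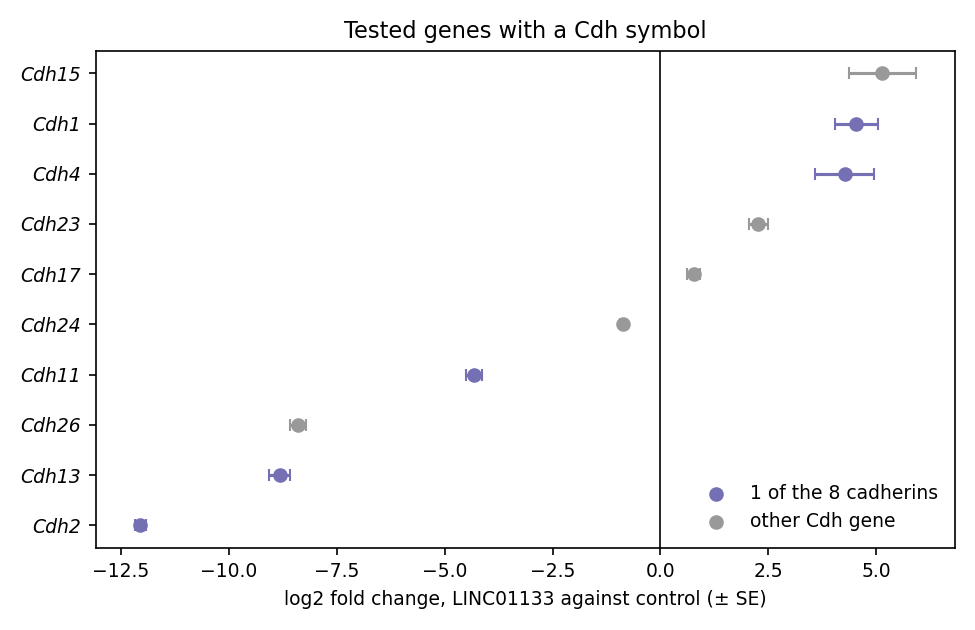
Log2 fold changes (LINC01133 against control, with SE) of the 10 tested genes with a Cdh symbol, 5 of them among the 8. The values run from -12.05 for Cdh2 to 5.14 for Cdh15; those of Cdh2, Cdh13, Cdh4 and Cdh15 rest on 1 to 3 counts in a group and are no bounds.

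Among the large and cadherin-related genes, 9 of 13 tested were higher and 3 lower, beside 44.5% and 40.5% of all tested genes. Cdhr5 and Ret had no read in the controls, and Cdhr2 and Fat2 had 1 and 2. These 4 passed the count filter only through the LINC01133 group. Fat4, with 4, 6 and 4 counts with LINC01133, passed only through the controls. Celsr3 and Dchs1 had as few as 8 and 6 counts in a control library. The count thus describes the genes tested and is no evidence about the list. The same limit holds for the other Cdh genes and for the nectin, enzyme, endothelial, fibroblast, epithelial, leukocyte and repressor lists. These also have members with few or no reads in 1 group. The flamingo cadherins of planar cell polarity were all higher, Celsr1 from 0.572 ± 0.116 to 3.93 ± 0.144 CPM, Celsr2 from 0.598 ± 0.0160 to 3.59 ± 0.447 CPM and Celsr3 from 0.486 ± 0.126 to 4.56 ± 0.461 CPM (SD, n = 3; adjusted p = 1.3e-23, 5.9e-21 and 2.3e-28). Cdh23, known from the tip links of hair cells, rose from 0.639 ± 0.0778 to 3.11 ± 0.136 CPM. Fat4, an atypical cadherin linked to Hippo signalling, fell from 3.67 ± 0.611 to 0.141 ± 0.0227 CPM, and the calsyntenin gene Clstn3 from 40.3 ± 1.95 to 0.642 ± 0.238 CPM. Fat1 was the most abundant of this list, with 323.1 ± 4.29 and 284.1 ± 3.14 CPM; it was lower by TMM scaling (-0.19) and higher by library size alone (0.06).

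Among the proteins that bind classical cadherins inside the cell, the 3 main catenins were abundant in both groups. With TMM scaling their log2 fold changes were at most 0.33, and with library-size scaling only they were 0.58 (Ctnnb1), 0.25 (Ctnna1) and 0.32 (Ctnnd1). For all 23 Cdh genes, the summed level was 43.2 ± 1.51 CPM per kb in the controls and 7.55 ± 0.502 with LINC01133 (SD, n = 3). Beta-catenin (Ctnnb1) rose from 659.0 ± 9.13 to 829.8 ± 12.8 CPM, a log2 fold change of 0.33 (SE 0.0204; adjusted p = 1.3e-32). Alpha-catenin (Ctnna1) stood at 319.6 ± 6.60 and 321.4 ± 4.50 CPM and was not called (0.01, SE 0.0230, adjusted p = 0.75), but was higher by upper-quartile (0.11) and library-size scaling. Delta-catenin 1 (Ctnnd1), which steadies cadherins at the membrane, stood at 287.4 ± 6.27 and 303.8 ± 6.87 CPM (0.08, SE 0.0236, adjusted p = 0.0012). Larger changes were found in other plaque genes. Plakoglobin (Jup), a catenin of both adherens junctions and desmosomes, rose from 3.45 ± 0.483 to 34.1 ± 0.925 CPM (3.31, SE 0.0860). Arvcf rose from 5.05 ± 0.175 to 20.9 ± 1.71 CPM, Plekha7 from 4.08 ± 0.371 to 22.8 ± 0.766 CPM and the alpha-catenin relative Ctnnal1 from 40.5 ± 3.54 to 167.9 ± 0.886 CPM. Lpp, a zyxin-family protein of adhesion sites, fell from 281.4 ± 3.49 to 106.5 ± 1.71 CPM, and afadin (Mllt4), which links nectins to actin, from 354.1 ± 10.3 to 198.2 ± 2.49 CPM. Of 18 tested catenin and plaque genes, 10 were higher and 7 lower (median log2 fold change 0.14, against 0.05 over all tested genes), but a 2-fold difference was reached by 5 higher and 1 lower.

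The nectins, immunoglobulin-type adhesion proteins of the same junctions, also changed in both directions. Nectin-1 (Pvrl1) had 0.287, 0.2498 and 0.171 CPM in the controls and 31.3, 31.9 and 30.0 CPM with LINC01133. Nectin-3 (Pvrl3), a partner of nectin-1 in trans, had 39.8, 39.9 and 41.4 CPM in the controls and 0.747, 0.193 and 0.302 CPM with LINC01133. The groups of both genes lay far apart, in opposite directions (log2 fold changes 7.01, SE 0.149, and -6.66, SE 0.126; adjusted p = 4.4e-82 and 3.2e-82). Nectin-2 (Pvrl2) fell from 66.4 ± 1.36 to 29.9 ± 1.24 CPM, and the related poliovirus receptor gene Pvr rose from 38.2 ± 2.07 to 75.6 ± 2.93 CPM. Nectin-4 (Pvrl4) went from 1 to 73 counts. All 5 were called, 3 higher and 2 lower, beside 84.9% of all tested genes. Pvrl1 and Pvrl4 passed the count filter only through the LINC01133 group, and Pvrl3 only through the controls. The count thus describes these genes and is no evidence about nectins. The summed level of the 5 was 143.7 to 146.0 CPM in the controls and 134.5 to 140.4 CPM with LINC01133.

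**Figure D4:**
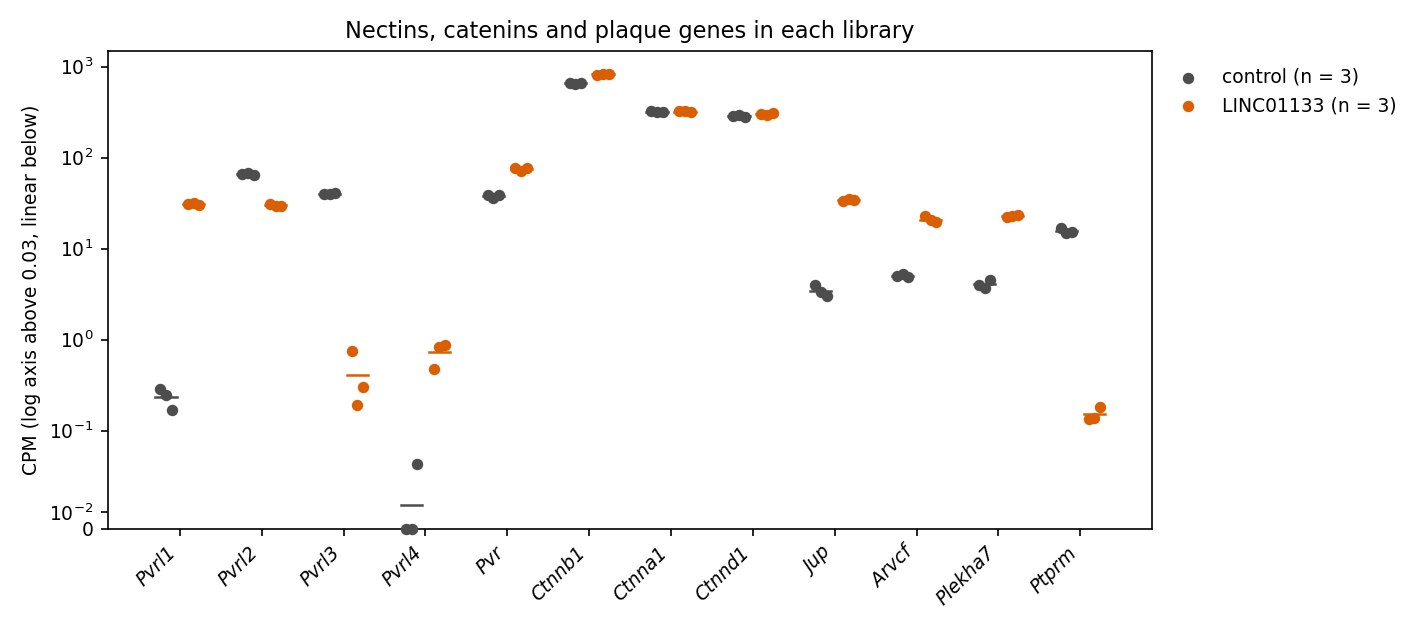
Levels of nectins, catenins, plaque genes and the phosphatase gene Ptprm in each library, in CPM on an axis that is logarithmic above 0.03 and linear below; points are libraries and bars are means of 3. Pvrl1 is higher and Pvrl3 lower with LINC01133, Ctnnb1, Ctnna1 and Ctnnd1 stay between 287.4 and 829.8 CPM in the mean, Jup, Arvcf and Plekha7 are higher with LINC01133, and Ptprm is lower.

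Among enzymes that cut, turn over or dephosphorylate cadherins and their catenins, 11 of 18 tested were higher and 7 lower. Over all tested genes 44.5% were higher and 40.5% lower. The median log2 fold change of the list was 0.52, against 0.05 over all tested genes. With library-size scaling these medians were 0.76 and 0.29. The receptor phosphatase gene Ptprm, whose protein binds cadherin complexes, fell from 15.7 ± 1.04 to 0.152 ± 0.0257 CPM, a log2 fold change of -6.65 (SE 0.190; adjusted p = 7.5e-67). Furin, the proprotein convertase that matures cadherin precursors, rose from 70.7 ± 2.17 to 197.9 ± 3.19 CPM (1.49). Src, a tyrosine kinase that acts on the cadherin-catenin complex, rose from 94.5 ± 4.07 to 221.9 ± 7.44 CPM (1.23). Proteases that can cut cadherins went both ways. The matrix protease gene Mmp3 rose from 0.264 ± 0.205 to 23.2 ± 0.704 CPM (6.43), and Mmp9 from 3.82 ± 0.745 to 7.35 ± 0.441 CPM (0.95). The membrane proteases split, Adam10 rising from 96.4 ± 2.36 to 145.5 ± 1.16 CPM and Adam15 falling from 192.2 ± 5.05 to 75.8 ± 1.79 CPM.

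Of known repressors of E-cadherin transcription and their cofactors, 10 of 15 tested were lower and 5 higher. Over all tested genes 40.5% were lower and 44.5% higher. The median log2 fold change of the list was -0.57, against 0.05 over all tested genes. A 2-fold difference was reached by 4 lower and 2 higher. Zeb1 fell from 50.4 ± 2.38 to 0.265 ± 0.116 CPM and Slug (Snai2) from 38.0 ± 3.87 to 0.384 ± 0.138 CPM, while Twist1 had 635, 543 and 579 counts in the controls and none with LINC01133. Snail (Snai1) went the other way, from no read in the controls to 409, 439 and 408 counts, at least 304-fold higher when the controls are set at their floor of 3 counts. Its relative Snai3 also rose, from no read in the controls to 21, 36 and 24 counts with LINC01133. Zeb2 fell from 166.7 ± 5.30 to 104.5 ± 2.24 CPM. With library-size scaling 8 of the 15 were lower and 6 higher, Hdac2 being lower by TMM scaling (-0.08) and higher by library size alone (0.17).

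Markers of mammary epithelium and of other cells were read beside the labelled cell type, a mammary carcinoma line. Of 22 epithelial markers, Cdh1 among them, 14 were under 1 CPM in the controls and 10 with LINC01133, and Epcam, Esrp1 and Grhl2 had no read in the controls. Epcam reached 0.794 ± 0.376 CPM with LINC01133 (SD, n = 3). The control libraries were thus nearly without Cdh1 and Epcam reads, and whether they match the labelled line was not tested. The keratin gene Krt8 was present in both groups, at 145.3 ± 3.82 and 217.1 ± 3.03 CPM, while its partner Krt18 rose from 2.06 ± 0.213 to 158.2 ± 4.45 CPM and the protease inhibitor gene Spint1 went from 3 to 3705 counts. Of the 17 tested, 14 were higher with LINC01133 and 3 (Krt5, Krt7 and Krt14) lower, and the summed level was 189.2 to 197.8 CPM in the controls and 559.7 to 575.2 CPM with LINC01133. Most tested fibroblast markers fell, as N-cadherin, T-cadherin and cadherin-11 did: 6 of 8 were lower and 2 (Dcn and Fap) higher. Their list had a summed level of 883.7 to 897.8 CPM in the controls and 182.5 to 189.6 CPM with LINC01133. Col3a1 and Lum had at most 1 read. Of 11 leukocyte markers 5 were tested, 4 being called higher and 1 lower. Beside these marker lists, 44.5% of all tested genes were called higher and 40.5% lower. The sums of the 11 leukocyte markers were 15.5 to 15.7 CPM in the controls and 34.6 to 35.1 CPM with LINC01133. Ptprc had at most 7 reads in a library and Tyrobp none. The part of these markers' cells in the cadherin results was not tested.

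The 8 genes do not all lie together, though Cdh3 and Cdh1 are 46439 bases apart. Cdh11, Cdh5, Cdh3, Cdh1 and Cdh13 are on chromosome 8, and among them Cdh11 and Cdh13 fell while Cdh1 rose. Of 41 tested genes within 1 Mb of Cdh1, 21 were higher and 10 lower (median log2 fold change 0.16). The nearest on one side, Tango6, 12821 bases away, was the lowest of them (-1.31), and Zfp90, the nearest tested gene beyond Cdh3, was lower too (-0.46). Within 1 Mb of Cdh13, 9 of 22 tested genes were higher and 12 lower (median -0.14), the lowest being Klhl36 (-1.73), so no neighbour fell as Cdh13 did. No tested gene matched by symbol lay within 1 Mb of Cdh2 or of Cdh11. Cdh4 and Cdh26, 955057 bases apart on chromosome 2, changed in opposite directions. Of 25 tested genes within 1 Mb of Cdh4, 21 were higher and 2 lower (median 0.91). Over all tested genes 44.5% were higher and 40.5% lower (median 0.05). Whether the rise of Cdh4 belongs to that of its surroundings was not tested.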

How the data were processed

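Per the labels' protocols, libraries were Illumina TruSeq from total RNA. The authors deposited raw counts per gene row with gene lengths, per the file headers, and the submitters' processing notes name mm10 and bcl2fastq. How reads were aligned and counted, with which annotation and strand setting, is not given in the sources used here, so reads of overlapping or antisense genes cannot be told apart. The number of columns of no sample was 0. Samples were grouped by title.

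The test was edgeR 4.0.16's quasi-likelihood F test (R 4.3.3) with TMM scaling, filterByExpr, robust dispersions and Benjamini-Hochberg adjustment over all 14116 tested genes (threshold 0.05). SE is the log2 fold change over the square root of F. Levels are CPM as mean ± SD; CPM per kb divides by the deposited length. Ratios have exact 95% binomial intervals, and intervals and floors of 3 counts cover counting error only. The script was tested on simulated counts. Replicates differed by more than sampling noise (chi-square 1.61 to 2.32 per degree of freedom).

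The 8 members and the 10 other gene lists were chosen with earlier results of these data known; 156 of 160 list entries were found. Named genes were all members, genes of the cadherin, catenin and nectin lists, up to 4 called genes by smallest p from each other list, and the 3 tested genes nearest to each called member of at least 5 CPM in a group (log2 CPM, prior count 2). Ptprm, Adam10, Mmp9, Zeb2, Hdac2, Snai3, the other cell type markers named beside their lists' counts and the neighbours on the chromosome are outside that rule and were chosen after their values were seen. Positions are from RefSeq GRCm38.p6, the mm10 assembly. Alternatives were RLE, library size and upper-quartile scaling, other count filters, a block for the replicate number, leaving out each sample, DESeq2 1.42.0, limma 3.58.1 voom, and no Rn45s row. Figures were drawn with matplotlib 3.10.9.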

Additional observations from a re-analysis of the deposited data

How the results depend on the processing

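The 5 tested cadherins kept their direction and their call in every alternative that tested them (15 each, 14 for Cdh4). Log2 fold changes ranged from -14.45 to -11.54 for Cdh2, from -9.005 to -8.43 for Cdh13, from -4.54 to -4.08 for Cdh11, from 3.99 to 5.81 for Cdh1 and from 3.74 to 4.64 for Cdh4. With at least 1 CPM required in at least 3 libraries, 1 cadherin was called higher instead of 2, because Cdh4 was no longer tested. Over all genes 6228 to 6379 were higher and 5632 to 5669 lower with 1 library left out, against 6280 and 5710. With library-size scaling only, the median over all genes was 0.29 on the log2 scale, against 0.05, and the split became 7847 higher and 4228 lower. By upper-quartile scaling it was 6919 and 5109.

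Without division by length, the shares of the summed level were 81.3% for Cdh2, 12.2% for Cdh13 and 6.35% for Cdh11 in the controls, and 53.7% for Cdh1, 24.0% for Cdh4, 15.7% for Cdh11 and 1.18% for Cdh13 with LINC01133.

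Same-numbered samples did not deviate together (correlations -0.0508, -0.0623 and -0.0138 over 8626 genes). With 3 libraries in a group this cannot exclude that same-numbered samples were handled together. With the replicate block 2 cadherins were higher and 3 lower, as without it, and 6188 genes were higher and 5629 lower. At 1 to 3 counts in a group, depth limits the size of a change rather than its direction, and below the count filter no change of Cdh3, Cdh5 or Cdh6 could be detected.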
